A study of Mus musculus with 4 samples.

Results

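Aminoacyl-tRNA synthetases are the enzymes that join each amino acid to its transfer RNA (tRNA), and the genes of this family were followed after knockdown of the long noncoding RNA Gm26917 in FGSCs, a cultured mouse line of female germline stem cells from the ovary. Members were chosen by name: protein-coding genes whose symbol is that of a cytosolic or mitochondrial synthetase, and the scaffold genes Aimp1 and Aimp2. This gave 39 of the 12701 genes listed, namely 18 cytosolic synthetases, 2 genes that serve both compartments (Gars and Kars), 17 mitochondrial synthetases and 2 scaffold genes, and all 39 had passed the low-expression filter of the table. Mars stands for the gene now called Mars1.

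The study compared FGSCs infected with lentivirus that encoded short hairpin RNAs against Gm26917 (shGm26917) with FGSCs that carried a control hairpin (shNC), in 2 libraries per group and 4 in all. Both groups came from 1 cell line, had otherwise the same labelled origin and, per the study's methods, had been under drug selection for the vector. Which of the 3 hairpins listed by the study was used is not stated in the sources at hand. Total RNA was sequenced, and values are CPM, reads scaled to a common library size. Nor is it stated that replicate libraries were grown as separate cultures, so the p-values reflect the spread between libraries, which may be technical.

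In the cytosol a synthetase serves ribosomes that read nuclear messages, whereas in mitochondria a second set, encoded by other nuclear genes and imported, serves the ribosomes that make the respiratory chain subunits of the mitochondrial genome. Several cytosolic synthetases sit in one multi-synthetase complex held by scaffold proteins, and the enzymes fall into class I and class II by the fold of their catalytic domain. When an amino acid is short, uncharged tRNA activates the kinase GCN2 (Eif2ak4), and the transcription factor ATF4 then raises many cytosolic synthetase genes together with amino acid transporters.

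The libraries were checked first. Gm26917 itself had 136 and 104 CPM in shGm26917 against 155 and 157 CPM in shNC, so the groups did not overlap, but it was not called (log2 fold change -0.39, adjusted p = 0.0696). Its neighbour Gm42418 fell to 729 and 687 CPM in shGm26917, against 2882 and 3462 CPM in shNC. Listed genes summed to 755160 and 771715 CPM in shGm26917 and to 766064 and 768440 CPM in shNC. Of 13 germline markers, 4 were listed (Kit, Ifitm3, Gfra1 and Zbtb16), and Ddx4, Dazl and Pou5f1 were not among the genes analysed here. Of these 4, Ifitm3 fell to 52.9 and 52.6 CPM in shGm26917, against 86.8 and 99.6 CPM in shNC, and Kit, Gfra1 and Zbtb16 were not called (log2 fold changes -0.04, 0.34 and -0.30). Of 9 mast cell markers, 3 were listed, and 1 of them, the protease gene Cpa3, rose to 734 and 823 CPM in shGm26917, against 490 and 541 CPM in shNC. Gata2 fell, as did Ms4a2, which was near the floor (0.25 and 0 CPM in shGm26917 against 1.82 and 2.29 CPM in shNC). Of 7 fibroblast markers, 6 were listed, of which Thy1 fell and Col3a1 rose. The 1 granulosa cell marker of 6 that was listed, Gja1, fell, as did 1 of 2 listed macrophage markers (Cd68), and none of 3 endothelial markers was listed. The part of these markers in the results on the synthetases was not tested, and in bulk RNA fewer cells of a type and less RNA per cell cannot be told apart.

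Promoters of 29 of the 39 members were found among the RefSeq promoter sequences (build GRCm38.p6, 250 bases before to 50 bases after the start). They were searched on both strands for 2 short motifs: TGATGNAA, the core at which ATF4 acts with a C/EBP partner, and CACGTG, the E-box read by MYC and MAX. The motifs share no overlap in the sequences shown. The first motif was found in 5 of the 29 members (17.2%), against 4.51% of 27025 genes, and all 5 (Aars, Gars, Iars, Tars and Yars) are cytosolic or dual. It stood in 5 of 13 cytosolic and dual promoters and in 0 of 14 mitochondrial ones. The 30 bases around it are shown for Gars (chr6:55037960-55037989, plus strand), Iars (chr13:49682126-49682155, plus strand) and Tars (chr15:11399655-11399684, minus strand), with the motif in capitals; in all 3 it reads on the strand opposite to the gene.
Gars: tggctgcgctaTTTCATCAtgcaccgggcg
Iars: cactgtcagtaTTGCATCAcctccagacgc
Tars: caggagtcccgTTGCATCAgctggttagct

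The other 2 promoters with the ATF4 motif are shown whole because their genes changed in opposite directions. Yars, which rose, holds it once, from base 4 after the start (chr4:129189653-129189952, plus strand). Aars, which fell, holds it at 2 places on the opposite strand and an E-box before both (chr8:111033592-111033891, plus strand), so a match in these windows did not go with 1 direction.
Yars: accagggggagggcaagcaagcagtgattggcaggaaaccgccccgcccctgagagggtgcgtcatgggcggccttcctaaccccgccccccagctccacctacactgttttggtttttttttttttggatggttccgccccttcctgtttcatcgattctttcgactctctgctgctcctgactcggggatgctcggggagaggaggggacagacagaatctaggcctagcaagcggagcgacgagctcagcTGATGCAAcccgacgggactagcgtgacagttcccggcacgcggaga
Aars: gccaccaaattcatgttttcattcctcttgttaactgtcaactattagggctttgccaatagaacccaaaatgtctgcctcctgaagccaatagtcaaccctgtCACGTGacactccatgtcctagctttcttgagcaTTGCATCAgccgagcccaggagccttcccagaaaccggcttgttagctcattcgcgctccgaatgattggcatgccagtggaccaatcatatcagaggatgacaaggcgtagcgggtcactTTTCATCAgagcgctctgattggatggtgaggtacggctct

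The promoter of Mars2, a mitochondrial member that rose, is shown as one with neither motif (chr1:55236927-55237226, plus strand). The E-box was found in 5 of 29 members (17.2%), against 8.09% of all genes, and in 1 of 14 mitochondrial promoters, that of Ears2. A match is a run of letters and not a site of binding, and no match says only that these letters are not in this window.
Mars2: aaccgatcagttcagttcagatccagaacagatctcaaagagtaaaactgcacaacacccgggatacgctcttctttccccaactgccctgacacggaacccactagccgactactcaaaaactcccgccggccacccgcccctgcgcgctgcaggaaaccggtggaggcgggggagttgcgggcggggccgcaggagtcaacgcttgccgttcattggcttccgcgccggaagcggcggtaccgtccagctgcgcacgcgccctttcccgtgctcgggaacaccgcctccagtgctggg

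To ask whether the family moved with the knockdown, shGm26917 was compared with shNC on log2(CPM + 0.5) with limma, and a gene was called at an adjusted p under 0.05 over all 12701 genes. Of the 39 members, 6 rose, 2 fell and 31 were not called. Over all genes 11.6% were called higher, 11.5% lower and 23.1% either way, so the share of members called was close to that over all genes. Without shGm26917 replicate 1, 4 members rose and 1 fell; without shGm26917 replicate 2, 3 rose and 1 fell. Without shNC replicate 1, 9 rose and 3 fell, and without shNC replicate 2, 9 rose and 7 fell. The calls were spread unevenly over the compartments: of 17 mitochondrial members 5 rose and 0 fell, while of 20 cytosolic and dual members 1 rose (Yars) and 2 fell (Rars and Aars). At an unadjusted p under 0.05 in limma, 1 mitochondrial member (Lars2) was lower. The mitochondrial count was 2 higher without shGm26917 replicate 1 and 2 without replicate 2, and 7 without shNC replicate 2. The difference between compartments was not tested, since genes are not replicates.

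The median log2 fold change was 0.22 over the 17 mitochondrial members, 0.24 without Lars2 and -0.015 over the 20 cytosolic and dual members, beside -0.0058 over all genes. In 12 of the 16 mitochondrial members other than Lars2 both shGm26917 libraries lay above both shNC libraries, against 31.5% of all genes. Among 7789 protein-coding genes with a mean of 5 to 80 CPM, about the levels of these members, 977 were called higher and 917 lower. Summed over the 16 genes, the level was 353 and 368 CPM in shGm26917 and 307 and 312 CPM in shNC. The cytosolic and dual genes summed to 4567 and 4556 CPM in shGm26917 and to 4778 and 4484 CPM in shNC, so these sums overlapped.

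**Figure D1:**
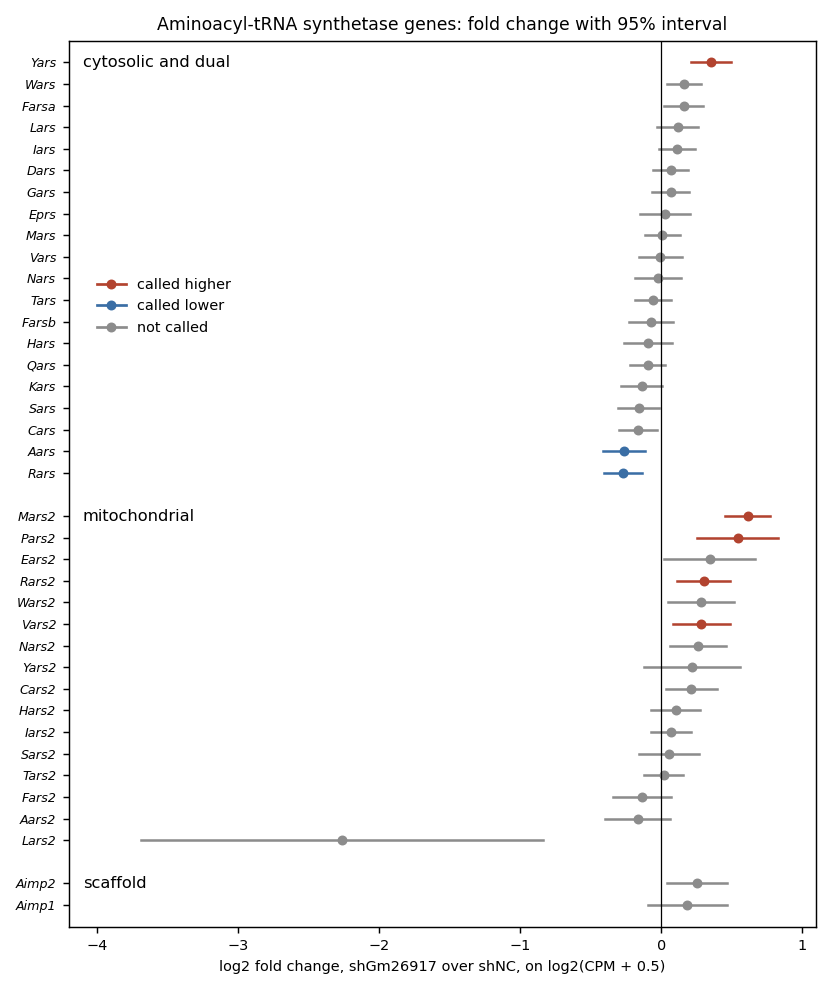
Log2 fold change of shGm26917 over shNC for 38 members (x axis, points) with its 95% interval (lines), ordered within cytosolic and dual, mitochondrial and scaffold genes; colour gives the call. Apart from Lars2 at -2.26, the mitochondrial points run between -0.17 and 0.61 and 13 of the 16 shown lie above 0.

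Mars2, the mitochondrial methionyl-tRNA synthetase whose promoter is shown above, rose to 45.5 and 49.2 CPM in shGm26917, against 29.8 and 31.7 CPM in shNC (log2 fold change 0.61, 95% interval 0.45 to 0.77, adjusted p = 0.00165). The groups were well apart. Mars, its cytosolic partner, had 137 and 144 CPM in shGm26917 against 140 and 139 CPM in shNC, with overlapping groups (log2 fold change 0.01, adjusted p = 0.935).

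Pars2, the mitochondrial prolyl-tRNA synthetase, is among the lowest members. It rose to 6.63 and 6.07 CPM in shGm26917, against 4.02 and 4.39 CPM in shNC (log2 fold change 0.54, 95% interval 0.25 to 0.83, adjusted p = 0.0197), without overlap. Without shGm26917 replicate 1 or without replicate 2 it was no longer called (highest adjusted p = 0.128). In the cytosol proline and glutamate are charged by one fused protein, Eprs, which had 599 and 575 CPM in shGm26917 against 613 and 542 CPM in shNC, so that its groups overlapped (log2 fold change 0.03, adjusted p = 0.839).

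The arginine pair moved in opposite directions. Rars2, the mitochondrial enzyme, rose to 23.4 and 24.6 CPM in shGm26917, against 20.4 and 18.5 CPM in shNC (log2 fold change 0.30, adjusted p = 0.0354), and Rars, the cytosolic enzyme of the complex, fell to 113 and 121 CPM in shGm26917, against 139 and 144 CPM in shNC (log2 fold change -0.27, adjusted p = 0.015). Neither gene's groups overlapped, but the margins were small. Rars2 lost its call in 4 of 12 other settings, among them without shGm26917 replicate 1, without replicate 2 and without shNC replicate 2 (highest adjusted p = 0.194), and Rars in 2, without shGm26917 replicate 1 (adjusted p = 0.12) and with moderation without trend (adjusted p = 0.0728).

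Vars2, which charges mitochondrial tRNA with valine, passed only just. It had 17.5 and 16.5 CPM in shGm26917 against 13.4 and 14.3 CPM in shNC (log2 fold change 0.28, adjusted p = 0.0499), and in 6 of 12 other settings, among them without shGm26917 replicate 1, without replicate 2 and without shNC replicate 1, the call was lost (highest adjusted p = 0.269). The groups did not overlap. Its partner Vars had 247 and 245 CPM in shGm26917 against 260 and 235 CPM in shNC, and its log2 fold change of -0.01 changed sign with the scaling.

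Yars, the cytosolic tyrosyl-tRNA synthetase, was the only cytosolic member that rose, and like Mars2 it kept its call in all 12 other settings. It had 130 and 140 CPM in shGm26917 against 108 and 103 CPM in shNC (log2 fold change 0.36, adjusted p = 0.00705), and the groups were apart. Yars2, its mitochondrial partner, had 14.3 and 15.8 CPM in shGm26917 against 10.99 and 15.1 CPM in shNC, with overlapping groups (log2 fold change 0.22, adjusted p = 0.315), and was called higher without shNC replicate 2 (log2 fold change 0.44).

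Aars, the alanyl-tRNA synthetase of the cytosol, fell to 323 and 306 CPM in shGm26917, against 389 and 366 CPM in shNC (log2 fold change -0.26, adjusted p = 0.0235). All shGm26917 values lay below the shNC values. It was not called without shGm26917 replicate 2 (adjusted p = 0.164) or with moderation without trend (adjusted p = 0.0843). Aars2, the mitochondrial partner, had 12.98 and 11.2 CPM in shGm26917 against 13.4 and 13.8 CPM in shNC, one of 3 mitochondrial members with a negative log2 fold change (-0.17, adjusted p = 0.266).

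**Figure D2:**
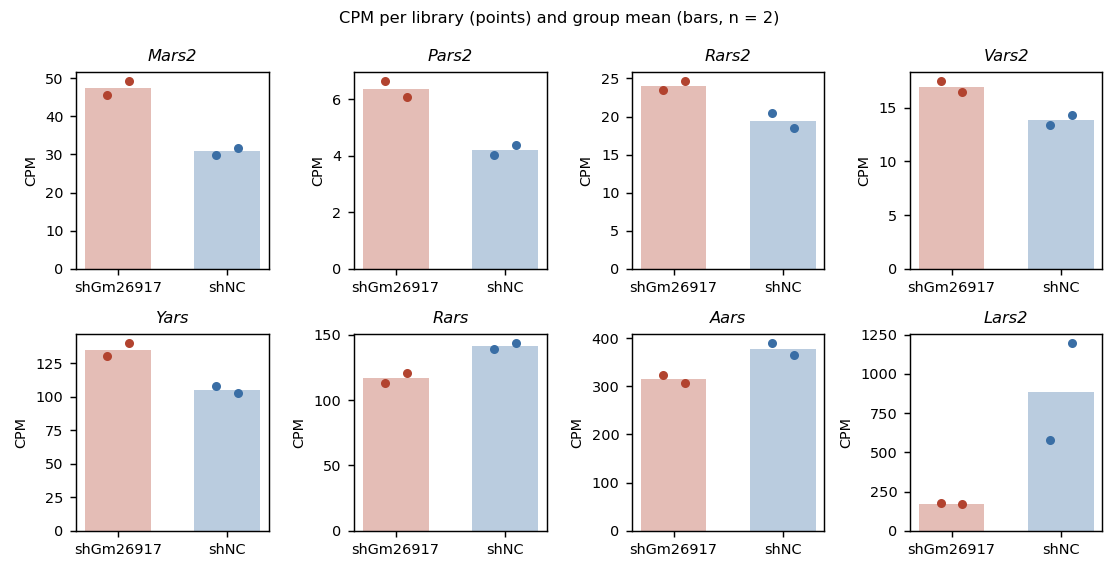
CPM in each library (points) and the group mean (bars, n = 2) for 7 called members and for Lars2, with shGm26917 left of shNC and each axis starting at 0. Mars2 shows clearly separate groups, while the shNC libraries of Lars2, at 577 and 1194 CPM, lie far apart from each other.

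Lars2, the mitochondrial leucyl-tRNA synthetase, stood apart from the rest of the family. It had 178 and 167 CPM in shGm26917 against 577 and 1194 CPM in shNC, a log2 fold change of -2.26 with a wide 95% interval of -3.69 to -0.84, and was not called (adjusted p = 0.0599). Both shGm26917 libraries were low, and the shNC libraries were high but unlike each other. It was called lower in 4 of 12 other settings, among them a filter of 5 CPM and moderation without trend. The others left out shNC replicate 1 or shNC replicate 2, which takes away the spread between the shNC libraries, so they cannot settle the call. Log2 fold changes over all settings lay between -2.79 and -1.74. In shNC the Lars2 mean of 79.9 CPM per kilobase of exon was above that of every other mitochondrial member. Its shGm26917 mean of 15.6 CPM per kilobase was likewise above every other mitochondrial mean in shGm26917.

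No other synthetase came near this change, and some RNAs outside the family did. At the targeted locus, CT010467.1, annotated as ribosomal RNA, had 9.22 and 8.52 CPM in shGm26917 against 63.0 and 61.9 CPM in shNC. There, AY036118 had 5.74 and 9.27 CPM in shGm26917 against 51.9 and 50.01 CPM in shNC. The mitochondrial ribosomal RNA mt-Rnr2, which comes from the mitochondrial genome, had 161 and 186 CPM in shGm26917 against 383 and 641 CPM in shNC. Like Lars2, mt-Rnr2 and the nuclear lncRNA Malat1 (441 and 455 CPM in shGm26917 against 695 and 1080 CPM in shNC) were highest in shNC replicate 2, as was Gm42418 of the targeted locus, whereas CT010467.1 and AY036118 were not. With BLAST, no member transcript matched transcripts of the 4 locus genes or 356 annotated ribosomal RNA transcripts, and ribosomal RNA not annotated there was not tested. With Lars2, the 17 mitochondrial genes summed to 531 and 536 CPM in shGm26917 and to 884 and 1507 CPM in shNC, so this 1 gene turned the direction of the sum.

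The mitochondrial members given next were not called, with log2 fold changes between -0.14 and 0.34. Ears2, for glutamate, had 8.86 and 8.12 CPM in shGm26917 against 7.47 and 5.80 CPM in shNC (log2 fold change 0.34, adjusted p = 0.115). Wars2, for tryptophan, had 10.7 and 11.9 CPM in shGm26917 against 8.98 and 9.33 CPM in shNC (log2 fold change 0.28, adjusted p = 0.0803). In both genes the shGm26917 libraries were the higher ones, and Ears2 was called without shNC replicate 1 (log2 fold change 0.51).

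Nars2, for asparagine, had 18.4 and 20.2 CPM in shGm26917 against 15.5 and 16.5 CPM in shNC (log2 fold change 0.26, adjusted p = 0.0638). Cars2, for cysteine, had 23.7 and 24.7 CPM in shGm26917 against 19.96 and 21.7 CPM in shNC (log2 fold change 0.21, adjusted p = 0.089). Neither gene had overlapping groups, and both were called higher without shNC replicate 2 (0.30 and 0.27). Hars2, Iars2, Sars2 and Tars2, for histidine, isoleucine, serine and threonine, had log2 fold changes of 0.10, 0.07, 0.06 and 0.02, and Fars2, for phenylalanine, had -0.14.

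Among the cytosolic members without a call, those with an unadjusted p under 0.05 went both ways. Wars, for tryptophan, had 99.5 and 100 CPM in shGm26917 against 88.9 and 89.1 CPM in shNC (log2 fold change 0.16, adjusted p = 0.0558). Farsa, the catalytic subunit for phenylalanine, had 43.0 and 43.2 CPM in shGm26917 against 39.2 and 37.8 CPM in shNC (log2 fold change 0.16, adjusted p = 0.092). Libraries within each group were nearly equal for both genes, and the shGm26917 ones were higher. Wars was called without shNC replicate 1 and without shNC replicate 2, while Farsa was called in no setting.

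Cars, for cysteine, had 129 and 126 CPM in shGm26917 against 148 and 138 CPM in shNC (log2 fold change -0.16, adjusted p = 0.0771). Sars, for serine, had 396.7 and 396.5 CPM in shGm26917 against 460.2 and 426.5 CPM in shNC (log2 fold change -0.16, adjusted p = 0.108). In both the shGm26917 libraries were the lower ones, and without shNC replicate 2 both were called lower (-0.21 each).

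Kars, for lysine in both compartments, had 101 and 103 CPM in shGm26917 against 118 and 107 CPM in shNC (log2 fold change -0.14, adjusted p = 0.145). Lars, the cytosolic partner of Lars2, had 257 and 254 CPM in shGm26917 against 246 and 226 CPM in shNC (log2 fold change 0.12, adjusted p = 0.216). Hars, for histidine, had 56.5 and 58.8 CPM in shGm26917 against 65.8 and 57.8 CPM in shNC (log2 fold change -0.10, adjusted p = 0.388). Without shNC replicate 1 Lars was called higher (log2 fold change 0.18), and without shNC replicate 2 Hars and Kars were called lower (-0.19 and -0.21), so these calls turned on single shNC libraries. Iars, Qars, Dars, Gars, Farsb, Tars, Nars, Eprs, Mars and Vars were not called, with log2 fold changes between -0.10 and 0.11.

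The 10 members of the multi-synthetase complex did not move as a block: 0 rose in limma (1, Aimp2, was higher at an unadjusted p under 0.05) and 1 (Rars) fell, with a median log2 fold change of 0.05. The scaffold gene Aimp2 had 23.3 and 22.8 CPM in shGm26917 against 20.8 and 17.8 CPM in shNC (log2 fold change 0.25, adjusted p = 0.0844). Aimp1 had 42.7 and 55.3 CPM in shGm26917 against 43.8 and 41.7 CPM in shNC (log2 fold change 0.18, adjusted p = 0.303), so the higher mean came from 1 library: without shGm26917 replicate 1 it was called higher (0.37) and without replicate 2 its log2 fold change was -0.0011. Aimp2 was called higher without shNC replicate 1 (0.36). Eef1e1, the third scaffold gene of the complex, had a log2 fold change of -0.0018 (adjusted p = 0.992). By enzyme class, 4 of 19 class I members rose and 1 fell, and 2 of 19 class II members rose and 1 fell. The shares over all genes were 11.6% higher and 11.5% lower.

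Each mitochondrial gene was also set against its cytosolic partner within the same library. Of 17 such pairs, the log2 ratio of the 2 CPM values lay higher in both shGm26917 libraries than in both shNC libraries for 11, lower for 2 and overlapped for 4. For Mars2 over Mars the log2 ratio was -1.59 and -1.55 in shGm26917 against -2.23 and -2.13 in shNC. For Rars2 over Rars it was -2.27 and -2.29 in shGm26917 against -2.77 and -2.96 in shNC. The 2 pairs that went lower were Lars2 over Lars and Fars2 over Farsa. Some pairs share a gene (Eprs and Fars2 each serve 2 of them), so the count is a description with no test. Of single genes, 31.5% lay wholly above in shGm26917, and the share among ratios of other gene pairs was not computed.

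**Figure D3:**
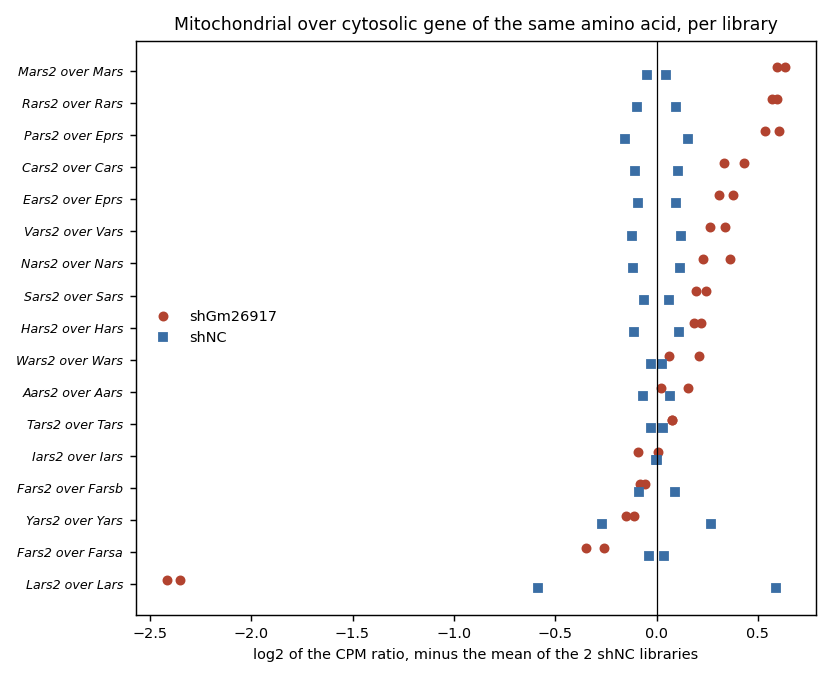
Log2 ratio of the mitochondrial to the cytosolic gene of the same amino acid in each library, minus the mean of the 2 shNC libraries of that pair (x axis), with shGm26917 as circles above shNC as squares for each of 17 pairs. The shGm26917 circles lie right of both shNC squares in 11 pairs and far left for Lars2 over Lars.

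Levels differed between the compartments far more than between the groups. Per kilobase of exon, cytosolic and dual members ranged over 8.99 to 150 CPM with a median of 33.5, whereas mitochondrial members other than Lars2 ranged over 1.47 to 7.85 CPM with a median of 3.18, as means over all 4 libraries, so these ranges did not meet. Of the scaffold genes, Aimp1 lay between them at 8.20 CPM per kilobase, and Aimp2, at 12.8, lay within the cytosolic range. Gars and Nars were highest, and Ears2 was lowest. The length is that of all annotated exons of a gene, so genes with long rare isoforms read too low on this scale.

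**Figure D4:**
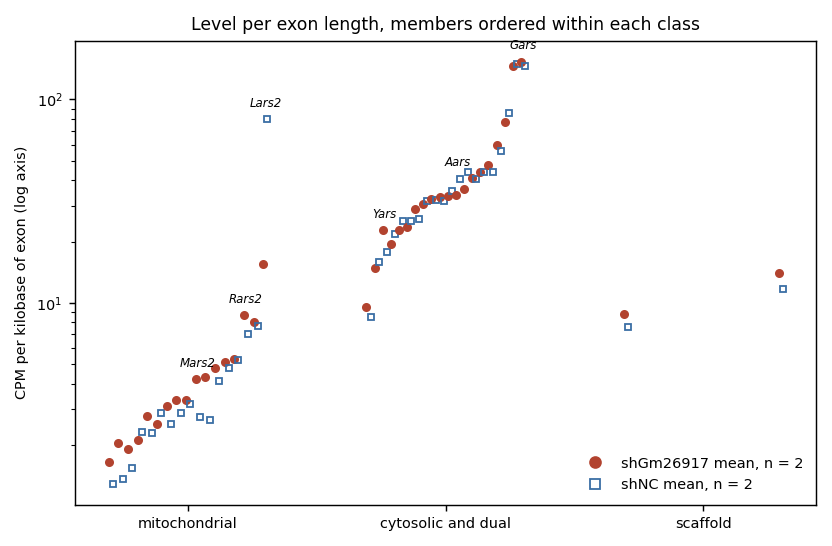
Group means (n = 2) in CPM per kilobase of exon on a log axis, with members ordered by level within each class, shGm26917 as filled circles and shNC as open squares. Most cytosolic and dual means lie above the mitochondrial ones other than Lars2, while those of Farsa (9.49 in shGm26917, 8.49 in shNC) and Rars2 (8.67 in shGm26917, 7.01 in shNC) overlap; for Lars2 the shGm26917 and shNC means, 15.6 and 79.9, are the furthest apart.

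Some members share a start region or bases with another gene. Rars2 starts 13 bases from Orc3, a subunit of the origin recognition complex that had a log2 fold change of -0.13 (adjusted p = 0.15), and Yars starts 33 bases from S100pbp (0.08, adjusted p = 0.39). Neither neighbour was called.

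Whether strand was used in counting is not given, so reads from overlapping genes cannot be told apart. Of the called members, Aars shares 1326 bases with Exosc6 on the same strand and Vars2 shares 339 bases with Gm20483, and these neighbours were not among the genes analysed. Iars has 1656 bases in common, at 96.0% identity, with the pseudogene Gm4849, and Iars2 shares 2034 bases with Rab3gap2 on the opposite strand. The 3 hairpin targets and the control sequence listed by the study each had at least 4 mismatches in 19 bases to every stretch of a member transcript.

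The genes around the synthetases were read from the same fit, in which 11.6% of all genes were called higher and 11.5% lower. Of 19 other genes of tRNA charging, 6 rose and 1 fell, with a median log2 fold change of 0.03. Of these, 4 belong to the selenocysteine route, in which serine already on its tRNA is turned into selenocysteine. Sephs1, which is related to selenophosphate synthetase, had 36.1 and 35.0 CPM in shGm26917 against 25.0 and 28.4 CPM in shNC (log2 fold change 0.41, adjusted p = 0.0108). Sephs2, the selenophosphate synthetase, Sepsecs, which makes the selenocysteine on the tRNA, and Secisbp2, which binds the recoding element of the message, rose by log2 fold changes of 0.27, 0.24 and 0.32. The other 3 genes of that route on the list, Pstk, Eefsec and Trnau1ap, were not called (0.14, -0.09 and -0.06).

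Gatc, a subunit of the mitochondrial enzyme that makes glutaminyl-tRNA, for which no separate mitochondrial synthetase exists, had 10.8 and 10.97 CPM in shGm26917 against 7.78 and 8.05 CPM in shNC (log2 fold change 0.43, adjusted p = 0.0172). Its partner subunits Gatb and Qrsl1 were not called (-0.05 and -0.06). Among the peptidyl-tRNA hydrolases, which recycle tRNA from stalled chains, Ptrh2 rose (0.32).

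Of 63 listed genes of tRNA processing, modification and export, 11 rose and 1 fell, beside 11.6% and 11.5% of all genes. The list median log2 fold change was 0.10. The 5 with the smallest p among those that rose were Nsun3 (0.81), which modifies mitochondrial methionine tRNA, Rpp25 (0.995), a protein of RNase P, Adat1 (0.91), a tRNA deaminase, Qtrt2 (0.44), a subunit of the queuine enzyme, and Rpp38 (0.58), also of RNase P. Nsun3 had 23.1 and 22.7 CPM in shGm26917 against 13.2 and 12.6 CPM in shNC. The tRNA methyltransferase Nsun2 fell (-0.21). Of 23 genes of RNA polymerase III and its factors, which transcribe tRNA genes, 5 rose (among them Polr3e, Polr3gl, Gtf3a and Gtf3c4) and 0 fell (2, Polr1d and Brf2, were lower at an unadjusted p under 0.05 in limma), with a median of 0.05.

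The ATF4 programme, to which many cytosolic synthetases belong, did not move in 1 direction. Atf4 had 530 and 530 CPM in shGm26917 against 560 and 585 CPM in shNC (log2 fold change -0.11, adjusted p = 0.22). Of 35 listed genes of the amino acid response, 8 rose and 4 fell, beside 11.6% and 11.5% of all genes. The list median log2 fold change was -0.04. Those that rose with the smallest p were the amino acid transporters Slc1a4 (0.50), Slc6a9 (0.52) and Slc1a5 (0.39), the secreted protein Stc2 (0.80) and the serine synthesis enzyme Phgdh (0.36), and those that fell were Chac1 (-0.67), Ppp1r15a (-0.38), Ddit4 (-0.65) and Ddit3 (-0.23). Ddit3 overlaps Mars by 68 exon bases on the opposite strand. A further list of 30 genes held GCN2 (Eif2ak4) and related kinases, translation factors linked to them, and amino acid sensors. Eif2ak4 itself was not called (log2 fold change 0.03). Of these 30, 3 rose (Eif2ak2, Depdc5 and Rragb) and 2 fell (Eif2b1 and Eif2b2), and the list median was -0.0043. Myc, whose protein reads the E-box, rose to 235 and 237 CPM in shGm26917, against 135 and 132 CPM in shNC (log2 fold change 0.83, adjusted p = 0.000214).

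**Figure D5:**
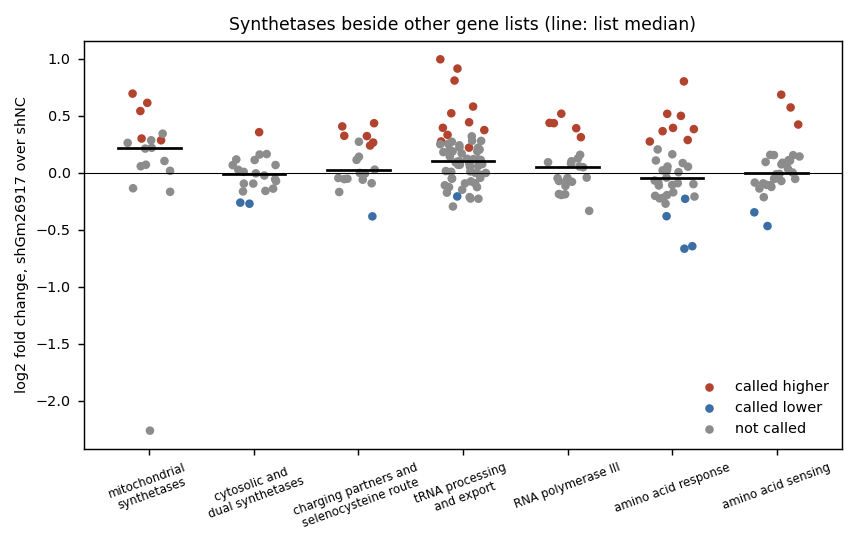
Log2 fold change of shGm26917 over shNC (y axis) for each gene of the mitochondrial and the cytosolic and dual synthetases and of 5 other lists; points are genes, colours give the call and black lines list medians. The mitochondrial synthetases have the highest median, 0.22, and Lars2 is the single point below -2.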

How the data were processed

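RNA-seq of 2 shGm26917 and 2 shNC libraries of FGSCs was analysed. The authors deposited 1 table of CPM per gene and library, made, per the submitters' processing notes, with RSEM 1.2.28, Bowtie2 2.1.0 and edgeR on mm10. The table also holds the authors' fold changes and p-values, which were not used. CPM came from RSEM estimates that split shared reads: 64.6 to 67.9% of values under 2 CPM lay within 0.02 of a whole multiple of 1 step, so reads were not recovered. The step implies 35900000 and 31640000 reads in shGm26917 and 15920000 and 25720000 in shNC. The part of depth in the results was not tested.

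Values were taken as log2(CPM + 0.5), which understates the change of low genes, and tested with limma 3.58.1 in R 4.3.3 (two-sided, variance trend, robust moderation, Benjamini-Hochberg over 12701 genes, called under 0.05). The fit was tested on simulated data. Of the members, 38 of 39 had the same position as in GENCODE M21 on mm10, used for exon lengths and overlaps, and BLAST 2.17.0 compared transcripts. The alternatives were pseudocounts of 0.1 and 1, 3 other scalings and a filter of 5 CPM in 2 libraries. Further ones were moderation without trend, each library left out and the replicate number as a block. The setting named moderation without trend also left out the robust option, and the part of each change was not tested. Members and lists were chosen with earlier results of these data known. Members were given in full where called, at an unadjusted p under 0.05, where a call changed with the setting, or as the partner of a called member, and other lists by the called genes with the 5 smallest p each way, except a few genes that are not reported here and stay in the tests and counts.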

Additional observations from a re-analysis of the deposited data

How the results depend on the processing

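Of the called members named, Mars2 and Yars passed in all 12 alternatives. Moderation without trend called 929 genes higher and 918 lower, with 4 members higher and 1 lower; the 1 was Lars2, and neither Rars nor Aars was called there. With 1 library left out, calls ran over 752 to 1793 genes higher, 832 to 1735 lower, 3 to 9 members higher and 1 to 7 lower; the lone library was then assumed to vary like the other group, and the cause of the spread was not tested. Upper-quartile scaling called 7 members higher. Deviations of same-numbered libraries from their group means had a correlation of 0.0569. With 2 libraries per group this value must be the same for both replicate numbers, so it cannot settle whether replicates were paired. With the replicate block 1979 genes rose, 2003 fell, and 10 members rose and 3 fell. Members with no call changed sign near 0: Vars at 0.00046 and 0.0093 with median-ratio and upper-quartile scaling and between -0.076 and 0.066 with a library left out, and, likewise with a library left out, Farsb between -0.15 and 0.0039, Nars between -0.095 and 0.046, Mars between -0.026 and 0.041, Eprs between -0.064 and 0.11, Yars2 between -0.0014 and 0.44 and Aimp1 between -0.0011 and 0.37. The median over mitochondrial members without Lars2 stayed between 0.19 and 0.26 in all settings, and that over cytosolic and dual members between -0.08 and 0.03. The low levels of most mitochondrial members and the 2 libraries per group limit the precision.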
